A study of Mus musculus with 6 samples.

Results

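The striated muscle contractile genes described here are 35 mouse genes that encode the proteins of the sarcomere and a few partners that hold it together or fuel it: 8 troponins, 7 myosin light chains, 3 myosin heavy chains, 6 proteins of the M band and the scaffold, 3 actins, 2 alpha-actinins, 2 tropomyosins and 4 proteins of energy and calcium storage. They were measured in mouse E14 embryonic stem cells, a line of strain 129/Ola, on 6 Illumina bead arrays. Cells labelled Δ3/Δ3 for Lsd1 (3 arrays) were set against cells labelled Lox/Δ3 (3 arrays), so both groups carry a Δ3 allele and neither is wild type. The labels do not spell these alleles out; from knowledge of the study, Δ3 is read here as a deletion of exon 3 and Lox as an allele with that exon flanked by loxP sites. Lsd1, whose current symbol is Kdm1a, encodes a histone demethylase that acts on H3 methylated at lysine 4. The members are all probes whose annotated symbol, current or older, is 1 of the 35 genes: 73 of the 45281 probes on the array, for 33 genes. Tnnt2 and Myh3 had no probe under their names and are not analysed here. The genes were chosen by name with their log2 differences between Δ3/Δ3 and Lox/Δ3 cells on these same arrays already known, so their differences are a description and no test is read from them.

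In a striated muscle cell, thick filaments of myosin slide along thin filaments of actin. Calcium binds troponin C, and the troponin complex then moves tropomyosin off the actin sites that myosin uses. Alpha-actinin anchors thin filaments at the Z disc, myomesins tie thick filaments together at the M band, and titin spans from one to the other. Skeletal and heart muscle use different members of each family, and some of these genes, such as Acta2, Myl9 and Tpm1, also serve smooth muscle and the cytoskeleton of other cells. Serum response factor (SRF), which binds a sequence called the CArG box, drives many of them, together with MEF2 factors and, in skeletal muscle, factors of the MyoD family that bind E boxes (CANNTG). Embryonic stem cells build no sarcomeres, and they can form heart and skeletal muscle cells when they differentiate.

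The actin promoters below are shown because the mean differences of the actins pointed in different directions, though no actin was past the threshold given below. That of Myl4 is shown because Myl4 was the 1 member past that threshold with a sequence in the table used. Each is the 250 bases before the start of the gene in RefSeq, build GRCm38.p6, read 5′ to 3′ on the strand of the gene. Capitals mark a CArG box, searched here only as an exact match to CCWWWWWWGG, where W is A or T.
Acta1 (chr8:123894776-123895025, - strand): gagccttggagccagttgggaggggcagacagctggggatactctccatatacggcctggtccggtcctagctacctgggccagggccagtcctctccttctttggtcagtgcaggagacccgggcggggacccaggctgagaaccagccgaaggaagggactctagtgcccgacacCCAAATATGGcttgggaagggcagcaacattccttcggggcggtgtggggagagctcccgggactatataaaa
Actc1 (chr2:114052876-114053125, - strand): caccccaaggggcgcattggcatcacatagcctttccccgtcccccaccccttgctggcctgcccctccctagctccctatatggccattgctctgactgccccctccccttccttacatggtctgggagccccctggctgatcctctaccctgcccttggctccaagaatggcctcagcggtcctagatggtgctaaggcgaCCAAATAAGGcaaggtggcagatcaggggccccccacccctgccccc
Acta2 (chr19:34255374-34255623, - strand): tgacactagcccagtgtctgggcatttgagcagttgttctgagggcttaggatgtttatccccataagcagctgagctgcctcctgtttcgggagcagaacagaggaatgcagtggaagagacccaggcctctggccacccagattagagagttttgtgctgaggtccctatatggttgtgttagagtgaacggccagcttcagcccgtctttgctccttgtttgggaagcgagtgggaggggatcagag
Myl4 (chr11:104550413-104550662, + strand): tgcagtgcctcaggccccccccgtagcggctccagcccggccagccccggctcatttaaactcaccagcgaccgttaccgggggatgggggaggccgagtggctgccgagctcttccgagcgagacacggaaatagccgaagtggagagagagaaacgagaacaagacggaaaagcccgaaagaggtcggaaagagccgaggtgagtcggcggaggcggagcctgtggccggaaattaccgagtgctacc

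The search covered 300 bases, from 250 before to 50 after each start, on both strands. Skeletal actin Acta1 held a CArG box from -73 to -64 and cardiac actin Actc1 held 1 from -47 to -38, counted from the annotated start. No exact match lay in the windows of smooth muscle actin Acta2 or of Myl4. Sites that depart from the searched pattern by a base, such as ccctatatgg in the Acta2 and Actc1 sequences above, were not counted. So the search does not show that Acta2 lacks sites for SRF. Over all 32851 RefSeq windows of this length, 1.63% held a CArG box. Windows were available for 30 of the 35 members, and 7 had a CArG box: Acta1, Actc1, Ldb3, Myl3, Myl7, Myl9 and Myom1. The MEF2 site was found for 1 member, Ttn, and in 0.557% of all windows. The E box CANNTG was found for 28 members and in 72.3% of all windows. Its subset CAGCTG was found for 12 members and in 16.3% of all windows, and TATAAA for 7 members and in 13.6% of all windows. These member counts are by gene, and some genes have several windows. Of the 37 member windows, 8 held a CArG box, 1 the MEF2 site, 34 CANNTG, 15 CAGCTG and 7 TATAAA. The Myl4 window held none of these letters. Tnni2 and Myom2, also described below, had no entry.

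Each array detected between 18506 and 19799 probes at a detection p under 0.05, and the median raw signals lay between 73.8 and 83.7. Kdm1a itself measured 10.56, 10.21 and 10.42 on the Δ3/Δ3 arrays and 12.07, 11.76 and 12.02 on the Lox/Δ3 arrays in log2 signal, 2.94-fold lower in Δ3/Δ3 cells (log2 difference -1.56 ± 0.15 SE; limma adjusted p = 0.013). Whether its probe lies in exon 3 was not examined. The series text calls the arrays of a genotype biological replicates without saying whether they were separate clones or cultures, so the p-values reflect only how far these samples vary, which may be technical. With bulk RNA, fewer cells of a type and less RNA per cell cannot be told apart.

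Detection of the contractile genes ranged from 0 to all 6 arrays. Of the 73 probes, 35 were detected on no array and 25 on all 6. A probe was kept for the comparison when detected on at least 3 of the 6 arrays, which left 35 of the 73 (47.9%, close to the 43.4% of all probes) and 26 members. Of those 26, 17 had a mean log2 signal at or below 8.39, the median of the 10711 genes tested, and 9 lay above it, where the median by definition splits all genes evenly. Myl4, Mylpf, Acta2, Tpm1, Tnnt1, Tpm2, Actn2, Actn3 and Myl9 made up the upper group. Signals of different probes are not levels of their genes that can be ranked, so no member is set against another.

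The 7 members with a probe of which none was kept were detected on 0 of the 6 arrays. They were Tnnt3 and Myl1, the fast skeletal troponin T and essential light chain; Myh7, the beta cardiac heavy chain; Ckm, the muscle creatine kinase; Neb, the ruler of the skeletal thin filament; and Casq1 and Casq2, the calsequestrins that store calcium in skeletal and heart muscle. Their raw signals lay between 46.6 and 81.3, around or below the array medians. Of the 12 Ttn probes 1 was kept. In all, 27 probes of members that were kept by another probe fell below the filter.

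**Figure D1:**
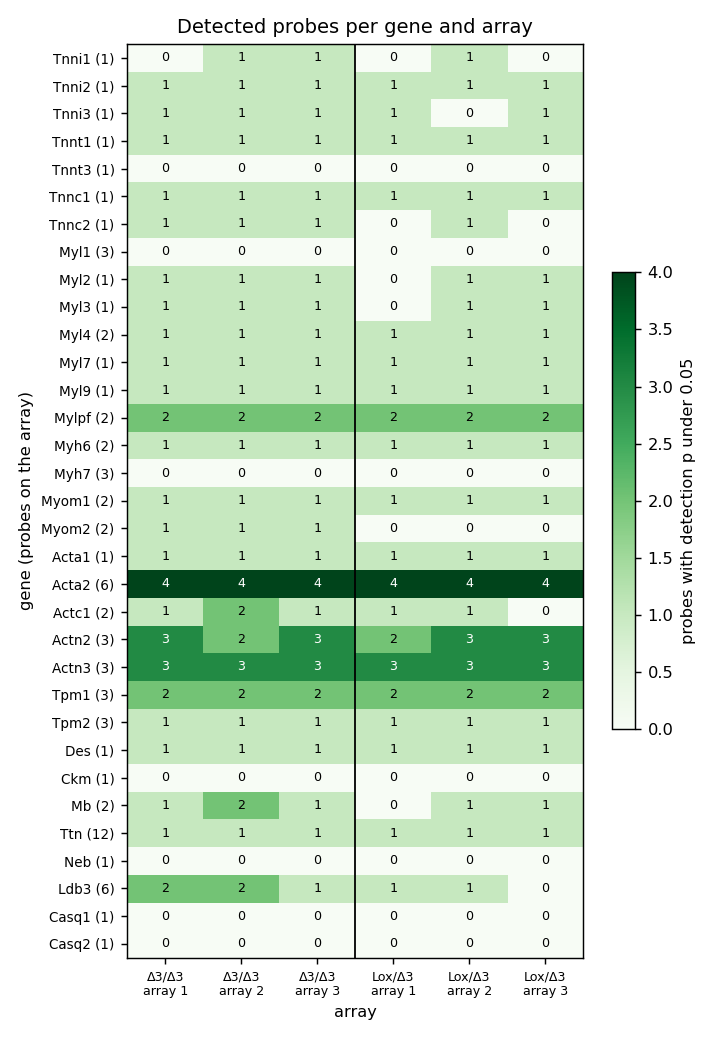
Number of probes detected (detection p under 0.05) for each of the 33 contractile genes with a probe (rows, with the number of probes on the array in brackets) on each of the 6 arrays (columns, Δ3/Δ3 left of the line and Lox/Δ3 right). A reader should see the 7 genes with 0 throughout and Myom2, detected on 3 Δ3/Δ3 arrays and 0 Lox/Δ3 arrays.

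Detection was uneven between the genotypes. Of the 26 kept members, 17 were detected on all 6 arrays and 9 on more Δ3/Δ3 than Lox/Δ3 arrays: Tnni1, Tnni3, Tnnc2, Myl2, Myl3, Myom2, Actc1, Mb and Ldb3. No member (0) was detected on more Lox/Δ3 arrays. Over all genes tested, 6.13% were detected on more Δ3/Δ3 arrays and 3.44% on more Lox/Δ3 arrays. A gene kept only through the genotype where it is high had to differ, as Myom2 did, so these counts support nothing by themselves.

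Of the 26 members, 18 were higher and 8 lower in Δ3/Δ3 cells, with a median log2 difference of 0.231 against -0.025 over all genes tested, of which 46.4% were higher. Among the 15 members detected at p under 0.01 on all 6 arrays the median was 0.013, and over the 26 it was 0.398 without Lox/Δ3 array 2. In the limma fit of all genes, with Benjamini-Hochberg adjustment and a threshold of 0.05, 3 members passed, Tnni2, Myl4 and Myom2, all higher. Over all genes 1.31% passed, 1.03% higher and 0.28% lower, and where each kept probe was tested on its own 1.15% of the probes passed, again with 3 members called; nothing is read from the members' count because the comparison chose them. The arrays of the genotypes did not overlap for 10 members that were higher and 2 that were lower, or 46.2% of the 26, against 23.8% of all genes (11.3% higher and 12.5% lower). A difference of at least 1.5-fold was seen in 7 members that were higher and 2 that were lower, against 5.71% and 2.83% of all genes. Without any 1 of the Δ3/Δ3 arrays or without Lox/Δ3 array 1 the number past the threshold was 0, without Lox/Δ3 array 2 it was 1, and without Lox/Δ3 array 3 it was 6.

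**Figure D2:**
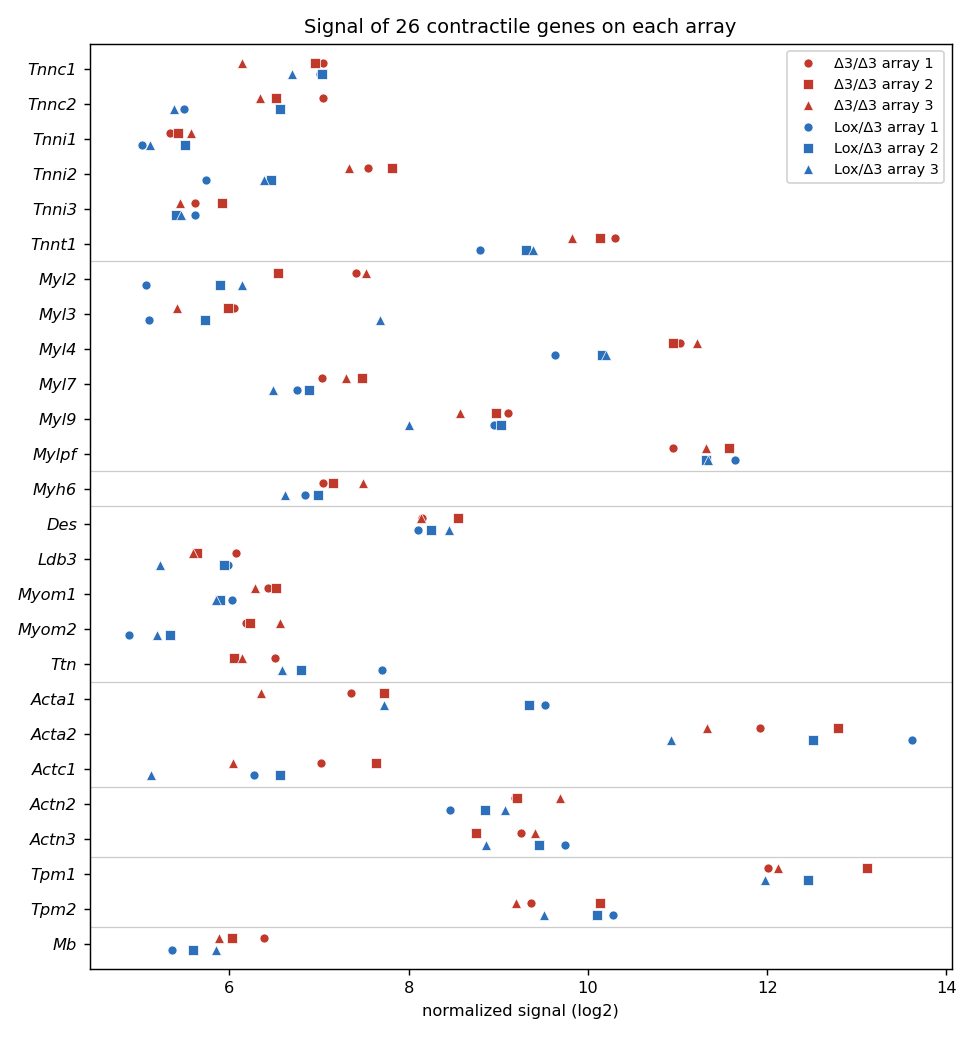
Normalized log2 signal (horizontal axis) of the 26 kept contractile genes (rows, ordered by role) on each array, with Δ3/Δ3 in red, Lox/Δ3 in blue and the shape giving the array. Tnni2, Tnnt1 and Myl4 have all 3 red points to the right of all 3 blue points, and Acta2 has blue points from 10.93 to 13.62.

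Among the troponins, 6 of 8 were kept and 5 of those were higher in Δ3/Δ3 cells. Tnni2, the fast skeletal troponin I that inhibits contraction at rest, measured 7.55, 7.81 and 7.34 on the Δ3/Δ3 arrays and 5.74, 6.46 and 6.39 on the Lox/Δ3 arrays in log2 signal. All Δ3/Δ3 arrays lay above all Lox/Δ3 arrays, by 2.59-fold on average (log2 difference 1.37 ± 0.22 SE). The difference lay between 1.12 and 1.5 with each array left out in turn, and it was 0.96 with no background correction. Tnnt1, the slow skeletal troponin T that ties the complex to tropomyosin, measured 10.3, 10.13 and 9.82 against 8.8, 9.31 and 9.39. It too showed no overlap, at 1.89-fold higher (0.92 ± 0.20 SE), and it was not past the threshold in the comparison reported but was without Lox/Δ3 array 3 (difference 1.03), with array weights (0.81) and on the authors' value table (0.78), which called 4 members. Tnnc2, the fast skeletal calcium sensor, measured 7.05, 6.52 and 6.34 against 5.49, 6.57 and 5.38 (0.82 ± 0.33 SE). Here Lox/Δ3 array 2 lay among the Δ3/Δ3 arrays while the other Lox/Δ3 arrays lay below and did not detect it, and the difference was 0.28 with array weights.

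The other 3 kept troponins had smaller differences. Tnni1, the slow skeletal troponin I, differed by 0.24 ± 0.16 (SE) and Tnni3, the cardiac one, by 0.17 ± 0.15. Tnnc1, the calcium sensor of slow skeletal and heart muscle, differed by -0.20 ± 0.24, and its sign turned without Δ3/Δ3 array 3 (0.08). All 3 had overlapping arrays.

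Of the 7 myosin light chains 6 were kept, 4 higher and 2 lower. Myl4, the essential light chain of the atrium and of embryonic muscle, measured 11.03, 10.95 and 11.22 in Δ3/Δ3 cells and 9.63, 10.16 and 10.2 in Lox/Δ3 cells. The genotypes did not overlap, at 2.1-fold higher in Δ3/Δ3 (1.07 ± 0.18 SE), and the difference lay between 0.88 and 1.18 with each array left out. With detection at p under 0.01 on all 6 arrays required, it was again past the threshold, while Tnni2 and Myom2 were removed by that filter and so have no value there. Its second probe was detected on no array.

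Myl2, the regulatory light chain of the ventricle and of slow muscle, measured 7.41, 6.54 and 7.52 against 5.07, 5.89 and 6.14. All Δ3/Δ3 arrays lay above, at 2.75-fold (1.46 ± 0.34 SE), with detection on 3 Δ3/Δ3 and 2 Lox/Δ3 arrays, and the gene was not past the threshold in the comparison reported but was without Lox/Δ3 array 3 (difference 1.67) and with array weights (1.37). Myl7, the regulatory light chain of the atrium, measured 7.03, 7.48 and 7.3 against 6.76, 6.89 and 6.49 (0.55 ± 0.17 SE). It did not overlap either, though its difference was below 1.5-fold. Myl4 and Myl7, the 2 atrial light chains, thus both showed no overlap, which holds for 23.8% of all genes, and only Myl4 was past the threshold. Nppa, of the heart list, was never detected.

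The remaining light chains showed no separation of the genotypes. Myl9, the regulatory chain of smooth muscle and non-muscle cells, differed by 0.23 ± 0.28 (SE), which became -0.10 without Lox/Δ3 array 3. Mylpf, the fast skeletal regulatory chain, differed by -0.16 ± 0.18 with its other kept probe at -0.25, and by 0.01 without Δ3/Δ3 array 1. Myl3, the essential chain of the ventricle and of slow muscle, had its per-array values looked at after its spread was seen: 6.05, 5.99 and 5.42 against 5.1, 5.73 and 7.68. A single high value on Lox/Δ3 array 3 set its difference of -0.35 ± 0.58, which was 0.41 without that array.

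Several endoderm markers were high on that same array, as the map of array patterns shows. Col4a1 measured 12.73 on Lox/Δ3 array 3 and 10.46 and 10.43 on the other Lox/Δ3 arrays, Lama1 12.24 against 10.4 and 10.35, and Gata6 9.01 against 7.56 and 7.09. Over the whole endoderm list, 12 of 14 genes were tested, 0 passed the limma threshold and 1 had an unadjusted p under 0.05; their summed linear signal ran from 6818 to 25015 in Lox/Δ3 and from 7378 to 10099 in Δ3/Δ3, and Foxa2 and Afp were never detected. The pattern was not confined to that list. On Lox/Δ3 array 3 the heart list gene Nppb measured 7.72, against 5.76 and 5.59 on the other Lox/Δ3 arrays. Pdgfra, of the same list, measured 7.38 against 6.26 and 5.68, and the sarcomere list gene Ankrd1 8.87 against 7.13 and 7.15. Gata4 and Myocd, also in the heart list, were not highest there. The part of any of these genes in the Myl3 value was not tested.

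Of the 3 myosin heavy chains only Myh6 was kept, the alpha cardiac motor, beside Myh7 with no detection and Myh3 with no probe. It measured 7.04, 7.16 and 7.49 in Δ3/Δ3 cells and 6.84, 6.99 and 6.62 in Lox/Δ3 cells. The genotypes did not overlap and the difference was small (0.41 ± 0.16 SE).

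The M-band genes Myom2 and Myom1 had higher means in Δ3/Δ3 cells, and of these only Myom2 was past the threshold in the comparison reported. Myom1 was past it with array weights (difference 0.5). Myom2, a myomesin of fast and heart muscle, measured 6.18, 6.23 and 6.56 on the Δ3/Δ3 arrays and 4.88, 5.34 and 5.19 on the Lox/Δ3 arrays. Detection was seen on 3 Δ3/Δ3 arrays and on 0 Lox/Δ3 arrays, so its Lox/Δ3 level has only an upper bound, and on the normalized scale it was at least 1.81-fold higher in Δ3/Δ3 cells (fitted log2 difference 1.18 ± 0.17 SE). That bound depends on the background correction: it was 1.46-fold with an offset of 50 and 1.4-fold with no correction or on the authors' value table, with fitted differences of 0.72, 0.68 and 0.69. The raw signals were 124, 114 and 142 against 76.1, 86.5 and 80.3. Myom1, the myomesin of all striated muscle, was detected on all 6 arrays and measured 6.43, 6.52 and 6.29 against 6.03, 5.89 and 5.85 (0.49 ± 0.13 SE), a difference of 0.33 with an offset of 50 and of 0.29 with no background correction or on the authors' table. No overlap was seen for either gene, and each has a second probe that was detected on no array.

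Among the other scaffold proteins, Ttn, the giant spring of the sarcomere, went the other way. Its kept probe measured 6.51, 6.05 and 6.14 in Δ3/Δ3 cells and 7.7, 6.8 and 6.59 in Lox/Δ3 cells, 1.74-fold lower (-0.80 ± 0.28 SE). All Lox/Δ3 arrays lay above all Δ3/Δ3 arrays, with Lox/Δ3 array 1 the farthest, and without that array the difference was -0.46. Des, the muscle intermediate filament desmin, differed by 0.01 ± 0.16 and Ldb3, a Z-disc adaptor, by 0.05 ± 0.23, and the sign of each turned under some alternatives.

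The mean differences of the 3 actins pointed in different directions, and none was past the threshold in the comparison reported. By the median SD of a role the actins varied most between arrays of 1 genotype. The light chain Myl3, with an SD of 1.34 over the Lox/Δ3 arrays, still varied more there than Acta1 or Actc1. Acta1, the skeletal actin, measured 7.36, 7.72 and 6.35 in Δ3/Δ3 cells and 9.52, 9.34 and 7.73 in Lox/Δ3 cells. Each Δ3/Δ3 array lay below every Lox/Δ3 array, though Δ3/Δ3 array 2 and Lox/Δ3 array 3 lay almost together, and the mean was 3.29-fold lower (-1.72 ± 0.51 SE). The difference was not past the threshold in the comparison reported but was without Lox/Δ3 array 3, at -2.29, and with array weights, at -2.13. It was -1.33 without Δ3/Δ3 array 3. Actc1, the cardiac actin, measured 7.02, 7.64 and 6.04 against 6.28, 6.57 and 5.12. It was 0.91 ± 0.47 (SE) higher with overlapping arrays, and the difference ran from 0.47 without Lox/Δ3 array 3 to 1.35 without Δ3/Δ3 array 3. With the replicate number as a block, Acta1 and Actc1 were also past the threshold, though the samples were not treated as paired.

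Acta2, the smooth muscle actin, varied widely over the Lox/Δ3 arrays, and its per-array values were looked at after that was seen. It measured 11.92, 12.79 and 11.33 in Δ3/Δ3 cells and 13.62, 12.51 and 10.93 in Lox/Δ3 cells. The highest and the lowest value both lay in Lox/Δ3 cells, so the difference of -0.34 ± 0.64 (SE) had no stable sign: it was 0.30 without Lox/Δ3 array 1. All 4 kept probes of Acta2 gave differences between -0.38 and -0.34 and ordered the arrays of each genotype in the same way. The median SD of the 3 actins was 0.986 over the Lox/Δ3 arrays and 0.734 over the Δ3/Δ3 arrays, against 0.177 and 0.180 over all genes. Whether a probe of 1 actin also binds another actin was not examined.

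**Figure D3:**
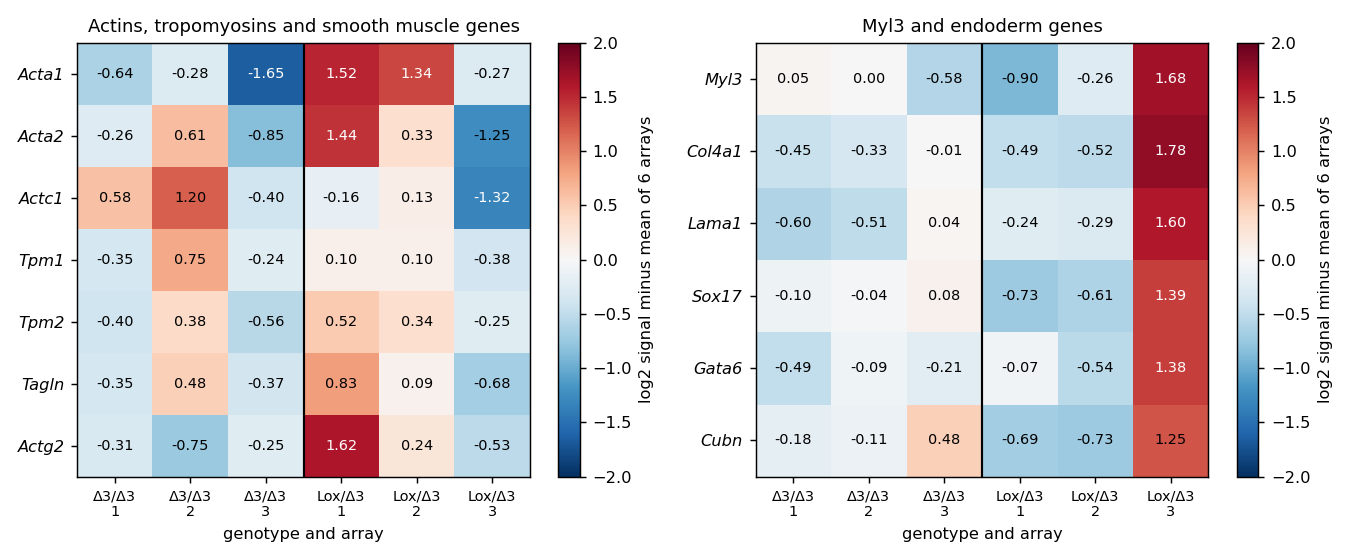
Log2 signal minus the mean of the 6 arrays for actins, tropomyosins and 2 smooth muscle genes (left) and for Myl3 with endoderm genes (right), with Δ3/Δ3 arrays left and Lox/Δ3 arrays right of each line and red above the mean. Acta2, Tagln and Actg2 are highest on Lox/Δ3 array 1, and Myl3, Col4a1 and Lama1 on Lox/Δ3 array 3; these genes were chosen for this pattern after their values were seen.

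The smooth muscle gene Tagln, an SRF target that is not a member, had its highest value on the same array as Acta2, at 6.22, 7.05 and 6.2 against 7.4, 6.66 and 5.89. The fibroblast marker Col1a1 was ordered over the arrays of each genotype as Acta2 was, at 6.43, 6.61 and 5.63 against 8.16, 6.9 and 5.61. The other tested fibroblast markers, Thy1 and Mmp2, were instead lowest on Lox/Δ3 array 1. Over the Lox/Δ3 arrays Thy1 measured 7.49, 8.33 and 8.82, and Mmp2 9.81, 10.18 and 10.39. The part of fibroblasts in the Acta2 values was not tested. Each actin was lowest on array 3 within both genotypes. Over the 26 members, Lox/Δ3 array 3 was the lowest Lox/Δ3 array for 14 (53.8%, against 39.2% of all genes), and Δ3/Δ3 array 3 was the lowest Δ3/Δ3 array for 15 (57.7%, against 31.1%). The members' median SD was 0.319 over the Lox/Δ3 arrays and 0.272 over the Δ3/Δ3 arrays.

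The alpha-actinins and tropomyosins showed smaller differences. Actn2, the Z-disc actinin of all striated muscle, measured 9.19, 9.21 and 9.69 in Δ3/Δ3 cells and 8.46, 8.85 and 9.08 in Lox/Δ3 cells. The genotypes did not overlap (0.56 ± 0.21 SE), and its 3 probes gave differences from 0.06 to 0.70. Actn3, the actinin of fast fibres, differed by -0.22 ± 0.26, with 3 probes between -0.34 and -0.09. Tpm1 differed by 0.12 ± 0.29 and Tpm2, a tropomyosin of slow skeletal and smooth muscle, by -0.40 ± 0.28. The value of Tpm1 was -0.23 without Δ3/Δ3 array 2, and neither tropomyosin separated the genotypes.

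Mb, the oxygen store myoglobin, was the 1 member of the energy and calcium group that was kept. It measured 6.39, 6.03 and 5.88 against 5.36, 5.59 and 5.85. The genotypes touched without overlapping, at 0.50 ± 0.18 (SE), and Lox/Δ3 array 1 did not detect it.

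**Figure D4:**
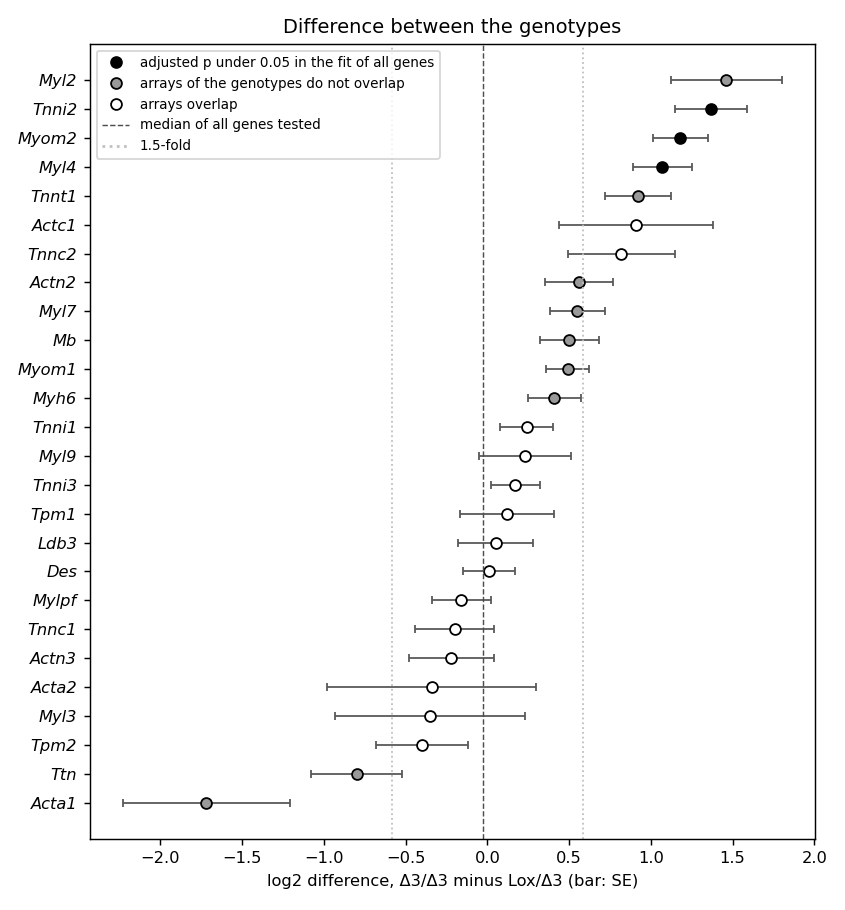
Log2 difference, Δ3/Δ3 minus Lox/Δ3, with its SE (horizontal axis) for the 26 kept contractile genes (rows, largest first), with black points past the threshold in the fit of all genes, grey points without overlap between genotypes and open points with overlap. The dashed line is the median of all genes, -0.025; the differences run from 1.46 for Myl2 to -1.72 for Acta1.

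Genes of the same tissues that are not members were taken from 6 lists holding 165 genes, of which 88 were tested and 1 passed the threshold. The lists were drawn up with earlier results known, Cox6a2 among them. Of 39 further sarcomere genes 13 were tested, 8 higher and 5 lower with a median difference of 0.038, and 17 were never detected. None (0) passed in limma and 6 had an unadjusted p under 0.05, a level reached by 18.2% of all genes. The largest differences were those of Myom3, the third myomesin, at 0.83 ± 0.18 SE (limma adjusted p = 0.066), the chaperone gene Cryab at -0.76 (limma adjusted p = 0.214) and the obscurin-like gene Obsl1 at -0.63 (limma adjusted p = 0.189). Myom3 measured 6.41, 6.36 and 6.77 in Δ3/Δ3 and 5.46, 5.62 and 5.98 in Lox/Δ3 cells. Its genotypes did not overlap, which holds for 23.8% of all genes.

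Of 36 genes of calcium handling and muscle energy 21 were tested, 16 higher and 5 lower, with a median of 0.185. Cox6a2, the muscle form of a cytochrome oxidase subunit, fell in Δ3/Δ3 cells: it measured 5.77, 5.54 and 5.17 against 7.12, 7.18 and 6.4 (-1.41 ± 0.24 SE; limma adjusted p = 0.0408). Its call was lost without each array except Lox/Δ3 array 3, where the number of genes called over the 6 lists was 4. Cox7a1, another muscle subunit of the same enzyme, stood on the other side, at 0.78 (limma adjusted p = 0.0884). Eno3, the muscle enolase, was at -0.82 and Ryr3, a calcium release channel, at 0.77 (limma adjusted p = 0.063 for each). Of the 21, 5 had an unadjusted p under 0.05.

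Of 24 listed regulators of skeletal muscle genes 20 had a probe and 9 were tested, 6 higher and 3 lower with a median of 0.104. Over the whole array 43.4% of probes were kept. Another 9 regulators were never detected, Myod1, Myf5, Myf6, Mef2c, Pax3 and Pax7 among them. Tead1 and Mbnl1 were detected on all 6 arrays, with means of 10.37 and 9.66 in Δ3/Δ3 and 10.68 and 9.38 in Lox/Δ3 cells. Myog was at 0.03 ± 0.26 (SE; limma adjusted p = 0.97). None (0) passed in limma and 2 had an unadjusted p under 0.05; the largest differences were those of the repressor gene Msc at 0.67, Mef2b at -0.65 and Tead1 at -0.31 (limma adjusted p = 0.509, 0.127 and 0.212).

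Of 19 heart regulators, all with a probe, 7 were tested, 2 higher and 5 lower with a median of -0.242, where 43.4% of all probes were kept. The other 12 were never detected, Nkx2-5, Tbx5, Tbx20, Hand1 and Hand2 among them. The largest differences were those of Hopx at 0.75, Isl1 at 0.72 and Gata6 at -0.52 (limma adjusted p = 0.309, 0.233 and 0.584). None (0) passed in limma and 1 had an unadjusted p under 0.05.

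Of 26 genes of smooth muscle and of SRF 19 were tested, 13 higher and 6 lower with a median of 0.326. None (0) passed in limma and 5 had an unadjusted p under 0.05. The early-response genes Fos and Egr1 were at 1.13 and 1.02 and the smooth muscle actin gene Actg2 at -0.88 (limma adjusted p = 0.455, 0.269 and 0.377). Fos and Egr1 were both highest on Δ3/Δ3 array 3, the array where the Δ3/Δ3 actins were lowest. Ccn1 and Ccn2 were highest there too, while Srf and Junb were not. A link between these genes and the actins was not tested. Cnn1, Myh11, Lmod1 and Mylk, which mark contractile smooth muscle, were never detected.

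Non-muscle actin and myosin genes served as a background for the shared cytoskeleton. Of 21 genes 19 were tested, 7 higher and 12 lower with a median of -0.052, and none (0) passed in limma while 3 had an unadjusted p under 0.05. Vim was at 0.62, Tmod3 at -0.46 and Ckb at 0.44 (limma adjusted p = 0.2, 0.258 and 0.137).

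**Figure D5:**
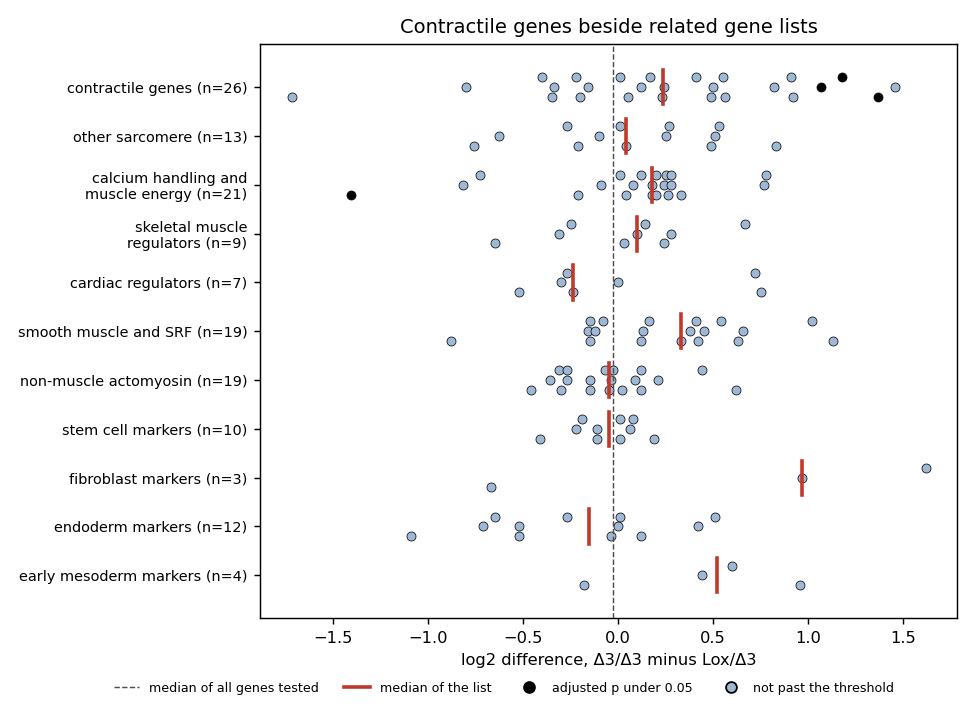
Log2 difference, Δ3/Δ3 minus Lox/Δ3 (horizontal axis), of each tested gene in the contractile genes, the 6 related lists and 4 marker lists (rows, with the number tested), with red bars at each list's median and black points past the threshold. The contractile genes run from -1.72 to 1.46 around a median of 0.231, and 1 related gene, Cox6a2, is black.

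Markers of other cells are given beside these genes. Of 12 fibroblast markers, which would show feeder cells, 3 were tested: Thy1 at 1.62, Mmp2 at 0.97 and Col1a1 at -0.67 (limma adjusted p = 0.0523, 0.0599 and 0.596). The summed linear signal of these 3 genes ran from 2650 to 3641 in Δ3/Δ3 and from 1361 to 1839 in Lox/Δ3 cells. Mmp2 had the highest signal of the 3 on each array and weighs most in that sum. Col1a2, Col3a1, Postn, Lum, Dcn, S100a4 and Twist2 were never detected. None (0) passed in limma and 2 had an unadjusted p under 0.05. Of 10 early mesoderm markers 4 were tested, 0 passed in limma and 3 had an unadjusted p under 0.05, with sums from 290 to 336 against 197 to 270, and 5 were never detected. Their part in the higher contractile genes was not tested. All 10 stem cell markers were tested, and 0 passed in limma with 0 at an unadjusted p under 0.05. Their sums ran from 87962 to 89076 in Δ3/Δ3 and from 92006 to 98580 in Lox/Δ3 cells. None of the fibroblast, early mesoderm and stem cell sums overlapped between the genotypes, and the stem cell sum was the lower one in Δ3/Δ3 cells. Single genes did not overlap in 23.8% of cases, and no such share was computed for sums.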

How the data were processed

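RNA of 6 samples, 3 per genotype as their labels give it, was measured on Illumina bead arrays, and the number of arrays limits the precision. The authors deposited non-normalized intensity values and columns headed only "p value", read here as detection p-values. For each array the 1 such column that never rose with rising signal was used. For software and genome build the sources used here give no name. The authors' deposited value table holds the same intensity values times 1 constant per array (11.9 to 13.6), which set each median to 1000. Probe names came from the platform annotation (34885 probes with 1 gene symbol, 18 with several, 10378 with none), and 34862 were matched to a RefSeq table of GRCm38.p6.

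The background was removed by nec in limma (detection p-values as its guide, offset 16) before quantile normalization and log2. Kept were probes with detection p below 0.05 on 3 or more arrays, and each gene was represented by its probe with the highest mean, which gave 10711 genes. Genotypes were compared with lmFit and eBayes, two-sided, with Benjamini-Hochberg adjustment over all genes and a threshold of 0.05; the script was tested on simulated data. The offset pulls differences of weak genes toward 0. For a gene detected on no array of a genotype, a lower bound of the fold is given, for which each dim array counted with its own value or, if higher, the weakest detected probe of that array. R 4.3.3, limma 3.58.1, Python 3.11.15, pandas 2.3.3 and matplotlib 3.10.9 were used.

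The members and all lists were chosen with earlier results of these data known. Values per array are given for members past the threshold, at least 1.5-fold different or without overlap, at most 14; of each related list, genes past the threshold and the 3 with the largest differences are named. Genes named beyond this rule were chosen after their values were seen. Alternatives were other background corrections and scalings, the deposited value table, other filters, every probe tested, array weights, a replicate block and leaving out each array.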

Additional observations from a re-analysis of the deposited data

How the results depend on the processing

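The members' median difference of 0.231 ran up to 0.398 under the alternatives, without Lox/Δ3 array 2. With detection at p under 0.01 on all 6 arrays, which left a smaller set of 15 members, it was near 0, at 0.013. Of 379 values of single members under the alternatives, 370 moved by less than 1 SD of the replicates. The other 9 were smaller differences of Myom2 (0.68 to 0.72), Myom1 (0.29 to 0.33) and Tnni2 (0.94 and 0.96) under other background corrections or the authors' table, and of Tnnc2 (0.28) with array weights. The sign turned for Des (5 alternatives), Ldb3 and Tpm1 (3 each), Acta2 and Myl9 (2 each), and Myl3, Mylpf and Tnnc1 (1 each), and for no other member. Genes called, members called and related genes called numbered 140, 3 and 1 in the comparison reported. They numbered 24, 0 and 0 with no filter on weak probes (2775 genes at an unadjusted p under 0.05), 60, 1 and 0 with the strict detection filter, and 511, 7 and 6 with array weights. With median scaling 261 genes were called, where the median of all genes was -0.102, and with every kept probe tested 226 probes. Leaving out 1 array gave 0 to 282 genes, 0 to 6 members and 0 to 4 related genes; 0 genes were called by limma without Δ3/Δ3 array 1, 2 or 3, where 1550, 1801 and 1608 had an unadjusted p under 0.05. With the replicate number as a block, 371 genes, 5 members (Acta1, Actc1, Myl4, Myom2 and Tnni2) and 5 related genes were called. The correlations of same-numbered arrays were 0.358, 0.067 and 0.402, and Δ3/Δ3 array 2 correlated best with Lox/Δ3 array 3 (0.132), while pairs 1 and 3 correlated best with their own number. This hint from the data is short of every pair over 0.1, so the samples were not treated as paired. Signal near background limits the 9 members not detected on all 6 arrays, and it is not confined to them. Tnni2 and Myom1 were detected on all 6, and their differences shrank under other background corrections. On Lox/Δ3 array 1 Tnni2 had a raw signal of 109.6 at a detection p of 0.0267. The cause of these shifts was not tested.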

Other observations

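The genes next to the 3 members past the threshold were looked at after those members were known. Around Tnni2 on chromosome 7, Ctsd differed by 0.04 (limma adjusted p = 0.92), and Tnnt3, 2 genes away, was not detected. Around Myl4 on chromosome 11, Cdc27 differed by -0.13 and Itgb3 by 0.07 (limma adjusted p = 0.692 and 0.838). Near Myom2 on chromosome 8, Arhgef10 differed by -0.07 (limma adjusted p = 0.878). The other genes within 2 places of these members had no probe or none kept.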
